A study of Mus musculus with 9 samples.

Results

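E proteins and their Id inhibitors were followed through mouse thymus and thymus tumors. The group held 6 genes of the 18193 named by the platform's gene table: the E proteins Tcf3 (E2A), Tcf4 (E2-2) and Tcf12 (HEB), and the inhibitors Id1, Id2 and Id3. Its members were all 19 probe sets, of 34945 with a single symbol, whose symbol was one of the 6 genes. A probe set is a group of short array probes read as a single signal.

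E proteins are basic helix-loop-helix transcription factors that bind DNA as dimers at the E-box, a short site of the form CANNTG. Id proteins pair with E proteins but have no DNA-binding region, so the pair cannot hold DNA. In the thymus E proteins drive T cell receptor gene rearrangement and hold developing thymocytes at checkpoints, and Id3, which is induced by T cell receptor signals, relieves that hold.

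The study hybridised total RNA of mouse thymus to the Affymetrix Mouse430_2 array, and the deposited values are MAS5 signals on a linear scale in arbitrary units. There were 3 groups of 3 arrays: normal thymus, thymus tumor, and a thymus tumor that the labels call XIST resistant, named resistant tumor here. The labels name neither the agent nor the assay behind the word resistant. The sources used here do not give strain, age, sex, genotype or the origin of the tumors.

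The labels number the arrays of a group from 1 to 3 without naming animals, so the spread between them may be technical and p-values measure only that spread. Signals of poly-A spike-in controls stood apart on 4 arrays (replicate 1 of each group and replicate 2 of the resistant tumors), where they averaged 2.01 to 2.95. On the other 5 arrays they averaged 141 to 237. Array medians ran from 13.9 to 25.8, and the 3 prime to 5 prime ratio of Actb, a sign of RNA integrity, from 1.63 to 3.16. Changes within both sets of arrays are given beside the results. The set without spike-ins holds 1 array of normal thymus, 1 of tumor and 2 of resistant tumor. The set with them holds replicate 3 as its only resistant array. A fit to either set alone leaves a group of 1 array, so its effect sizes are given without p-values.

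A promoter is shown for the member that fell in both tumor groups, Id3, and for Id2 and Tcf12, which both rose in resistant tumors against normal thymus. The promoter set used held no start for Tcf4 or Id1, so none is shown for them. Each line holds the 250 bases before the transcription start in RefSeq on GRCm38.p6, read 5′ to 3′ on the gene's strand. Capitals mark the E-box CANNTG, the TATA motif TATAA and the CCAAT box, searched on both strands. The windows are chr4:136143572-136143821 on the plus strand for Id3, chr12:25096093-25096342 on the minus strand for Id2, and chr9:72111820-72112069 on the minus strand for Tcf12, the most upstream of its 3 starts.
Id3: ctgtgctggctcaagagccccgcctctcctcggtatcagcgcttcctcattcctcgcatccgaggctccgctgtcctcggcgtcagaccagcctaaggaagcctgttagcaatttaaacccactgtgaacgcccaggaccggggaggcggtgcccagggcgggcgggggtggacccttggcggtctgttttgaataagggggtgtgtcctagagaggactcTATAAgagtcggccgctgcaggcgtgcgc
Id2: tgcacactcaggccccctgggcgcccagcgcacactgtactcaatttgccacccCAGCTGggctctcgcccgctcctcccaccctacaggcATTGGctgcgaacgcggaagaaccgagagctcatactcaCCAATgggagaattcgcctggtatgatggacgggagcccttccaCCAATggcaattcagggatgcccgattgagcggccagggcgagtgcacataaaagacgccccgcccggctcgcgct
Tcf12: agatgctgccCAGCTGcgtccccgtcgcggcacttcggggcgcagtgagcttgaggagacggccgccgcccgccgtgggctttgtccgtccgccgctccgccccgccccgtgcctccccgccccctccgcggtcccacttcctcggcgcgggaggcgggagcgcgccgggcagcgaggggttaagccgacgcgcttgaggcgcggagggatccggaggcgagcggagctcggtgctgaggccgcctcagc

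The Id3 window held no CANNTG and 1 TATAA, at bases -29 to -25 from the start. The Id2 window held 1 CANNTG, the palindrome CAGCTG at -196 to -191, and 3 CCAAT matches. That of Tcf12 held 1 CANNTG, also CAGCTG, at -240 to -235. Of 32851 RefSeq windows of the same length, 66.2% held a CANNTG, 13.0% a CAGCTG, 22.8% a TATAA and 33.8% a CCAAT. The EGR motif GCGTGGGCG (0.536% of windows) and the RBPJ motif GTGGGAA (5.42%) were not in the 3 windows. A match describes letters in the window, not a bound site.

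In tumors against normal thymus, Tcf4 and Id1 rose and Id3 fell, while Tcf3, Tcf12 and Id2 did not pass the test. A gene was called at a Benjamini-Hochberg adjusted p under 0.05 from limma, fitted over 11671 genes. That is 2 genes higher and 1 lower of 6, against 23.3% higher and 19.1% lower among all genes tested. In resistant tumors against normal thymus 4 of the 6 genes rose and 1 fell, against 23.1% and 20.2% among all genes. These shares of all genes also stand beside the counts of the gene lists below. Tcf12 and Id2 joined Tcf4 and Id1 on the higher side. Between resistant tumors and tumors none of the 6 was called, against 0.36% of all genes (42 genes). The 3 arrays of normal thymus serve both comparisons against it, so the values of the tumor groups are set side by side and not as independent repeats. In bulk tissue, fewer cells of a type and less RNA per cell cannot be told apart.

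**Figure D1:**
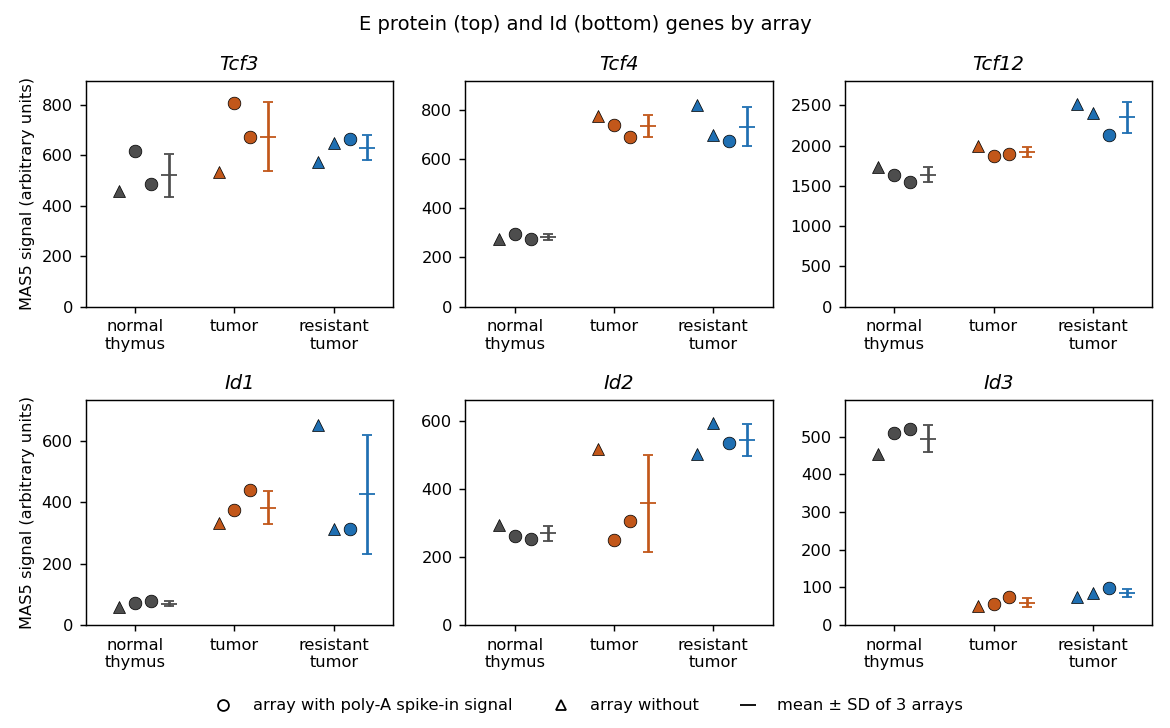
MAS5 signal of the brightest probe set of each gene on each array, linear axes from 0, with the mean and SD of 3 arrays beside the points of each group. Triangles are the 4 arrays without spike-in signal. Id3 lies at 453 or above in normal thymus and at 97.0 or below in both tumor groups, and Tcf4 and Id1 show the opposite order.

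Among the E proteins, Tcf4 (chromosome 18, probe set 1416723_at) rose most. This factor is the E protein needed by plasmacytoid dendritic cells and also acts in early lymphoid progenitors. Its signal was 275, 295 and 273.5 in normal thymus, 776, 739 and 689 in tumors, and 821, 699 and 674 in resistant tumors. Every array of both tumor groups lay above every normal array, while the tumor groups overlapped each other. The means were 281 ± 12.0, 734 ± 43.7 and 731 ± 78.7 (SD, n = 3). The log2 change against normal thymus was 1.38 ± 0.11 (SE; limma adjusted p = 1.09e-05), or 2.61-fold, in tumors and 1.37 ± 0.11 (adjusted p = 1.17e-05) in resistant tumors. Between resistant tumors and tumors it was -0.01, with a 95% interval from -0.25 to 0.23 (adjusted p = 0.985). In the set without spike-ins and the set with them, the change in tumors was 1.5 and 1.33, and in resistant tumors 1.46 and 1.25.

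Tcf4 had 5 probe sets that passed the filter on dim values, and all 5 were called higher in both tumor groups. Their log2 changes ran from 0.89 to 1.38 in tumors and from 1.13 to 1.60 in resistant tumors. The lowest of the 5, 1434148_at, read 285, 249.8 and 225 in normal thymus against 584, 507 and 342 in tumors. A sixth probe set, 1416725_at, was too dim to test, with signals of 4.18 to 28.7 over the 9 arrays.

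Beside the rise of Tcf4, 6 of 8 markers of plasmacytoid dendritic cells fell in tumors and 1 rose, and 4 fell and 1 rose in resistant tumors. The summed signal of 9 such markers on the array was 5008 to 5591 in normal thymus, 1092 to 1322 in tumors and 1073 to 3179 in resistant tumors. Most of it came from Ccr9 and Ly6d, and the other 6 tested markers summed to 532 to 647, 285 to 333 and 308 to 480.5. Siglech and Tlr7, which these cells carry, lay below the array median on all arrays of both tumor groups, Tlr7 in normal thymus too. The list shares Ccr9 and Spib with the T lineage targets below. The part of these cells in the Tcf4 signal was not tested.

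Tcf12 partners Tcf3 in thymocytes, where it takes part in Ptcra and Cd4 regulation. Its brightest probe set (chromosome 9, 1427670_a_at) read 1734, 1637 and 1548 in normal thymus, 1998, 1876 and 1890.2 in tumors, and 2511, 2403 and 2132 in resistant tumors. The 3 groups did not overlap, in the order normal, tumor, resistant. Means were 1639.6 ± 93.0, 1921 ± 66.4 and 2349 ± 196 (SD, n = 3). Tcf12 rose by 0.52 ± 0.09 (SE; limma adjusted p = 0.00135) in resistant tumors, a 1.43-fold change. That call was lost with arrays scaled to equal medians (0.46, limma adjusted p = 0.343). The change was 0.50 in the arrays without spike-ins and 0.42 in those with them. Over 20 alternatives its adjusted p ran from 0.000174 to 0.343. In tumors the log2 change was 0.23 ± 0.09 (adjusted p = 0.0627), or 0.20 without and 0.24 with spike-ins. With the replicate number as a block it was called (adjusted p = 0.0319), in a fit that called 51.1% of all genes tested, against 42.4% without the block. Over the 20 alternatives this adjusted p ran from 0.00986 to 0.449. The step from tumors to resistant tumors was 0.29, with an interval from 0.09 to 0.49 and an unadjusted p of 0.00957 (adjusted p = 0.366).

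The 5 probe sets of Tcf12 did not move alike. The probe set 1446294_at read 66.7, 54.7 and 55.4 in normal thymus, 134, 127 and 141 in tumors, and 136, 160.4 and 264 in resistant tumors. It was called higher in both tumor groups, at 1.19 (adjusted p = 0.00334) and 1.61 (adjusted p = 0.000634) over the 20917 probe sets tested. So was 1421908_a_at, at 0.65 and 0.96. By contrast 1439209_at read 509, 503 and 457 in normal thymus and 395, 421 and 404 in tumors, without overlap, at -0.27 (adjusted p = 0.0955). It was at -0.14 in resistant tumors, where the groups overlapped, and 1439619_at was at 0.35 and 1.17 with neither called. The difference between these probe sets was not tested, and the sources used here do not give the exons they read.

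Tcf3 encodes the E12 and E47 proteins, the founding E proteins of T and B lineage specification. Its signal (chromosome 10, 1426297_at) was 459, 619 and 486 in normal thymus, 536, 809 and 675 in tumors, and 573, 651 and 665 in resistant tumors. The groups overlapped in every pair. Means were 521 ± 85.6, 673 ± 137 and 629.7 ± 49.4 (SD, n = 3). The log2 change was 0.36 ± 0.17 (SE; limma adjusted p = 0.111) in tumors and 0.28 ± 0.17 (adjusted p = 0.204) in resistant tumors. With the replicate number as a block, the change in tumors was called at an unchanged estimate (adjusted p = 0.0190). Over 20 alternatives its adjusted p ran from 0.0190 to 0.454. When the fit also held the spike-in set, and called 58.7% and 58.8% of all genes tested in the 2 comparisons, Tcf3 was called in tumors (adjusted p = 0.0242) and in resistant tumors, at 0.38 (adjusted p = 0.0244, and 0.0244 to 0.799 over the alternatives). Its change in tumors was 0.22 in the set without spike-ins and 0.43 in the set with them, and in resistant tumors 0.41 and 0.28. Its other probe sets, 1427764_a_at and 1452542_x_at, were not called either, at 0.63 and 0.38 in tumors and 0.22 and -0.05 in resistant tumors.

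The inhibitor that fell was Id3 (chromosome 4, probe set 1416630_at), whose promoter without a CANNTG is printed above. Its signal was 453, 509.85 and 520.1 in normal thymus, 50.05, 54.8 and 74.4 in tumors, and 75.1, 84.0 and 97.0 in resistant tumors. No array of either tumor group came near the normal arrays, and the highest tumor array lay just under the lowest resistant array. Means were 494 ± 36.0, 59.7 ± 12.9 and 85.4 ± 11.04 (SD, n = 3). Id3 fell by 3.07 ± 0.17 (SE) on the log2 scale in tumors (limma adjusted p = 1.75e-06), 8.39-fold. In resistant tumors it fell by 2.54 ± 0.17 (adjusted p = 5.70e-06), 5.81-fold. The change was -3.18 without spike-ins and -3.01 with them in tumors, and -2.51 and -2.41 in resistant tumors. From tumors to resistant tumors the change was 0.53, with an interval from 0.14 to 0.92 and an unadjusted p of 0.0130 (adjusted p = 0.433).

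Id1 is a target of bone morphogenetic protein signals in many tissues and is prominent in growing endothelium. Its only probe set (chromosome 2, 1425895_a_at) read 59.4, 73.0 and 77.4 in normal thymus, 332, 374 and 438 in tumors, and 649.7, 312 and 313 in resistant tumors. All 6 tumor arrays lay above the normal arrays, and replicate 1 of the resistant tumors lay above the rest. Means were 69.9 ± 9.38, 381 ± 53.3 and 425 ± 195 (SD, n = 3). Id1 rose by 2.45 ± 0.27 (SE; limma adjusted p = 8.78e-05), 5.45-fold, in tumors. In resistant tumors it rose by 2.52 ± 0.27 (adjusted p = 7.31e-05), 5.73-fold, and by 2.17 without replicate 1 of that group. In arrays lacking spike-ins and in those holding them it was 2.48 and 2.43 in tumors and 2.92 and 2.06 in resistant tumors. The difference of the tumor groups was 0.07, with an interval from -0.53 to 0.68 (adjusted p = 0.958).

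Id2 is needed for natural killer and innate lymphoid cells and is low in most developing thymocytes. Its brightest probe set (chromosome 12, 1435176_a_at) read 294, 261 and 252.5 in normal thymus, 518, 249 and 306 in tumors, and 504, 594.5 and 534 in resistant tumors. Tumor replicate 1 lay among the resistant tumors, and the other tumor arrays lay just below and just above the normal range. Means were 269 ± 22.1, 358 ± 142 and 544 ± 46.2 (SD, n = 3). Id2 rose by 1.01 ± 0.23 (SE; limma adjusted p = 0.00589), 2.02-fold, in resistant tumors, and by 0.90 and 1.06 in the sets without and with spike-ins. In tumors the change was 0.34 ± 0.23 (adjusted p = 0.264). It was 0.82 in the arrays without spike-ins and 0.11 in those with them. The value over all arrays rested on replicate 1, without which it was 0.04 (adjusted p = 0.844, and 0.0679 to 0.844 with single arrays left out). From tumors to resistant tumors Id2 stood at 0.67, with an interval from 0.16 to 1.19 and an unadjusted p of 0.0157 (adjusted p = 0.472). It was 0.08 in the arrays without spike-ins and 0.95 in those with them, where replicate 3 is the only resistant array. Without tumor replicate 1 the change was called, at 0.98 (adjusted p = 0.0274, and up to 0.9999 with other single arrays left out).

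The other probe sets of Id2 pointed the same way. In resistant tumors 1422537_a_at was called at 1.10 (adjusted p = 0.0136) and 1453596_at stood at 0.90 (adjusted p = 0.0517). In tumors they stood at 0.73 and 0.39, neither called. Over all 18 member probe sets tested, 8 were called higher and 1 lower in tumors, against 19.6% and 16.3% of all probe sets. In resistant tumors 11 were higher and 1 lower, against 19.5% and 17.2%. Between the tumor groups 0 of 18 were called by limma, against 0.215%.

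**Figure D2:**
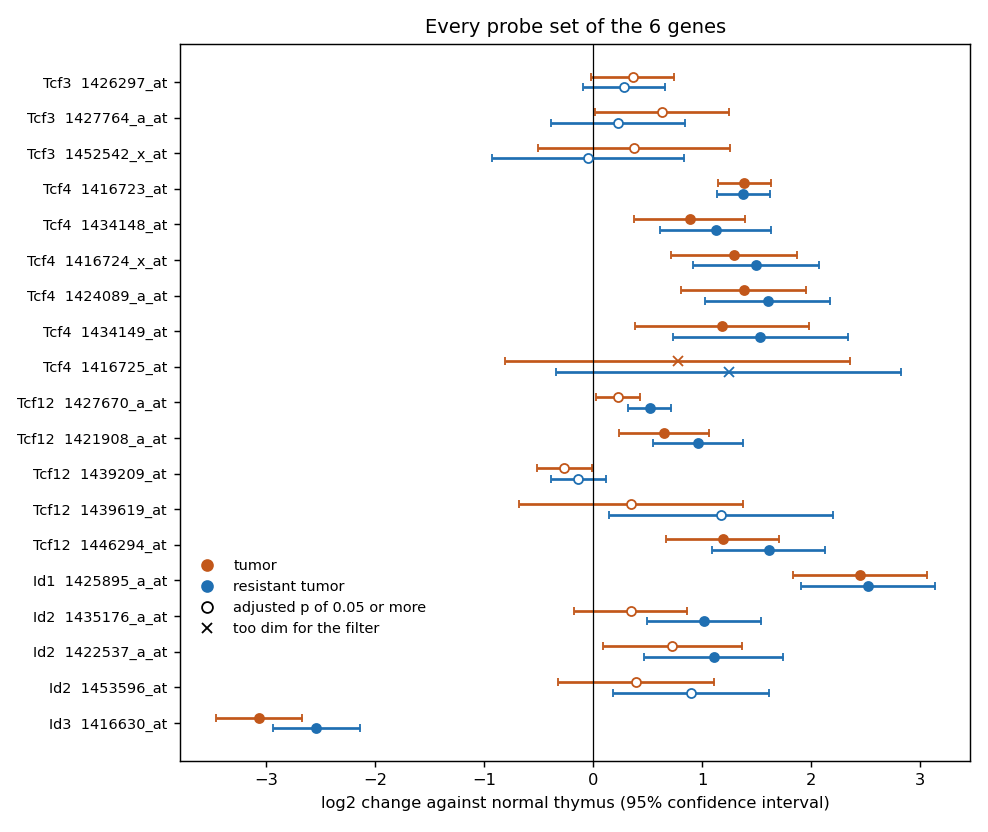
Log2 change against normal thymus for all 19 probe sets of the 6 genes, as limma estimates with 95% confidence intervals, in tumors (orange) and resistant tumors (blue). Filled points were called and crosses mark the probe set too dim to test. All 5 tested probe sets of Tcf4 lie above 0, the Id3 probe set lies at -3.07 and -2.54, and the probe sets of Tcf12 spread to both sides of 0.

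Groups of 3 arrays that do not overlap are common in these data. In tumors against normal thymus 4 of the 6 genes did not overlap, against 55.3% of all genes tested, and the genes that overlapped were Tcf3 and Id2. In resistant tumors against normal thymus 5 did not, against 54.6%. Between the tumor groups Tcf12 and Id3 did not overlap, 2 of 6 against 10.4%. Both, and Id2, had an unadjusted p under 0.05 there, 3 of 6 genes against 7.23% of all genes tested (844). The median log2 change of the 6 genes was 0.35 in tumors, 0.77 in resistant tumors and 0.18 between the tumor groups, beside 0.05, 0.06 and -0.02 over all genes.

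**Figure D3:**
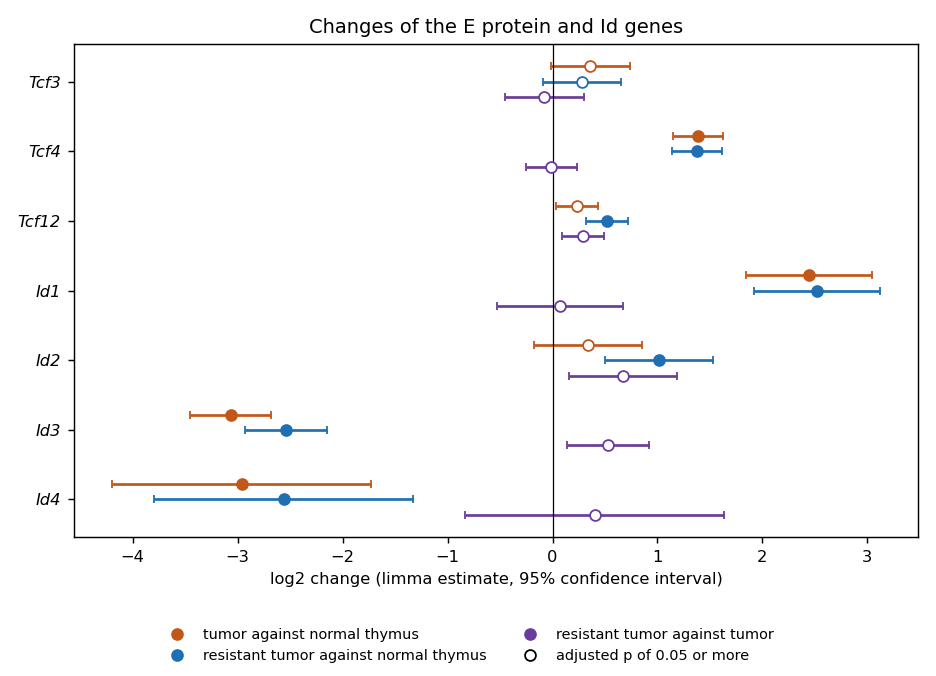
Log2 change of each gene in the 3 comparisons, as limma estimates with 95% confidence intervals over 3 arrays per group. Filled points had an adjusted p under 0.05. Tcf4 and Id1 lie to the right and Id3 and Id4 to the left in both comparisons against normal thymus, and all points of resistant tumor against tumor are open.

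Id4, the remaining Id gene, is an inhibitor best known from the nervous system and mammary gland. Its signal was 87.2, 43.5 and 49.0 in normal thymus and no more than 14.3 on any tumor array. Those tumor signals lay below the array median on all 6 arrays, so only a bound is given, with the array median as the lowest readable signal. Id4 was at least 3.27-fold lower in tumors (limma adjusted p = 0.00205) and at least 2.75-fold lower in resistant tumors (adjusted p = 0.00455). Its probe set passed the filter on dim values through the normal arrays alone, so these tests could only read it as lower. The same holds for Msc, Asb2, Cd79b and every other tested list gene below the array median on all 6 tumor arrays.

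Tcf7l1 and Tcf7l2, HMG box factors of the Wnt pathway, once carried the names Tcf3 and Tcf4 and are distinct genes with their own probe sets. Tcf7l1 rose in both groups, by 1.92 ± 0.17 (SE; limma adjusted p = 2.45e-05) and 2.07 ± 0.17 (adjusted p = 1.64e-05). Tcf7l2 rose by 1.13 ± 0.21 in tumors (adjusted p = 0.00198) and stood at 0.42 in resistant tumors, not called. Lef1, a T lineage HMG box factor, rose by 0.94 ± 0.20 and 0.80 ± 0.20. Tcf7 was not analysed here.

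Among 10 listed genes around the route that induces Id3, more fell than rose. T cell receptor signals induce the EGR factors, which in turn switch on Id3. The list holds response genes and corepressors beside inducers. Of the 10 genes 6 fell and 2 rose in tumors, with a median log2 change of -1.04. In resistant tumors 6 fell and none rose, with a median of -0.77. Among all genes 19.1% fell and 23.3% rose in tumors, and 20.2% fell and 23.1% rose in resistant tumors. Nr4a1, an immediate receptor-response gene, lay below the array median on 2 of 3 tumor arrays and 1 of 3 resistant arrays. With those at the array median, it was at least 16.5-fold lower in tumors (limma adjusted p = 3.85e-05) and at least 13.6-fold lower in resistant tumors (adjusted p = 5.64e-05). Egr1 fell by 2.68 ± 0.17 and 3.18 ± 0.17 (SE). Egr2 lay below the array median on all tumor arrays, at least 6.83-fold lower (adjusted p = 4.84e-06). It did so on 2 of 3 resistant arrays, at least 5.75-fold lower (adjusted p = 1.29e-05). Egr3, whose signal was dim, stood at 0.02 and 1.16, not called. The genes that rose in tumors were Fos, a subunit of AP-1, at 2.23 ± 0.63, and Nab1, an EGR corepressor, at 0.36 ± 0.13. Nab2, also a corepressor, fell by 2.24 ± 0.35 in resistant tumors (limma adjusted p = 0.000694), where 1 array lay below the array median. Its mean signal was 181 in normal thymus, 54.6 in tumors and 41.4 in resistant tumors. The part of this route in the Id3 signal was not tested.

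Thymocyte markers moved beside Id3. Of 11 such markers 7 fell and none rose in either tumor group, and the summed signal went from 18705 to 20686 in normal thymus to 10766 to 12706 in tumors and 9524 to 12018 in resistant tumors. Cd8a, Cd8b1 and Cd2 lay below the array median on all 6 tumor arrays. Cd3e, a chain of the receptor complex, stood at 0.19 and -0.04 and was not called, as was Cd3d at -0.10 and -0.31. Of 12 markers of thymic epithelium 10 fell in each tumor group, and 1 rose in resistant tumors. Their summed signal was 5739 to 6053 in normal thymus and at most 458 on any tumor array. The part of these cells in the Id3 signal was not tested.

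The listed BMP and TGF-beta inputs to Id genes, among them the BMP route that feeds Id1, held genes of both directions. Of 14 tested genes 4 rose and 2 fell in tumors, with a median of 0.05, and 4 rose and 1 fell in resistant tumors, with a median of 0.13. Among all genes 23.3% rose and 19.1% fell in tumors, with a median of 0.05. In resistant tumors 23.1% of all genes rose and 20.2% fell, with a median of 0.06. The genes that rose were the ligand Bmp7, by 2.22 ± 0.28 (SE; limma adjusted p = 0.000216) in tumors and 2.05 ± 0.28 in resistant tumors, and the receptor Bmpr1a, by 1.56 ± 0.18 and 1.70 ± 0.18. So did Smad1 and Smad5, which carry the signal to the nucleus, Smad1 by 1.21 ± 0.10 and 1.10 ± 0.10. Smad3, of the TGF-beta branch, fell by 0.37 in both. With arrays scaled to equal medians 3 of the 14 rose in tumors and 2 in resistant tumors, and 0 fell in either, in fits that called 19.6% and 17.5% of all genes. Smad9, Bmpr1b, Bmp2 and Bmp4 lay below the array median on all 9 arrays. The part of these inputs in the Id1 signal was not tested.

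Endothelial markers also moved beside Id1. Of 12 such markers 6 rose and 1, Pecam1, fell in either tumor group. Their summed signal was 614 to 631 in normal thymus, 786 to 1084 in tumors and 838 to 1239 in resistant tumors. In the arrays without spike-ins the median change of the 12 was 0.08 in tumors and 0.17 in resistant tumors. Fibroblast markers rose in 5 of 10 cases in tumors and 6 of 10 in resistant tumors, with 1 and 2 that fell, and their summed signal was 4560 to 5246 in normal thymus and 5259 to 10830 over the tumor arrays. That list holds Thy1, which thymocytes carry too, and the sum of the other 9 was 1232 to 1292 in normal thymus, 2717 to 6066 in tumors and 3457 to 7768 in resistant tumors. What these cells gave to the Id1 signal was not tested.

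Markers of other cells that carry Id2 were read beside it. Of 5 tested markers of natural killer and innate lymphoid cells 3 fell in each tumor group, and their summed signal over 9 genes went from 295 to 319 in normal thymus to 51.8 to 87.1 in tumors and 62.5 to 102 in resistant tumors. Of the 9, 8 lay below the array median on all arrays of each tumor group. In normal thymus 4 did so too (Ncr1, Klrk1, Eomes and Klre1). The tested markers Klrd1, Nkg7 and Prf1 passed the filter through normal thymus alone. Conventional dendritic cell markers fell in 6 of 8 cases in tumors and 5 of 8 in resistant tumors. Over 9 genes the summed signal was 1063 to 1230.5 in normal thymus, 349 to 531 in tumors and 306 to 1325 in resistant tumors. Macrophage markers fell in 1 of 10 in both groups and rose in none. Their summed signal was 2161 to 2659 in normal thymus, 1409 to 2449 in tumors and 1504 to 2808 in resistant tumors. The part of these cells in the Id2 signal was not tested.

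Genes known to be bound or regulated by E proteins in T lineage cells went both ways. Of 23 tested, 6 rose and 12 fell in each tumor group, with medians of -0.44 in tumors and -0.39 in resistant tumors. The shares of all genes that rose and fell were 23.3% and 19.1% in tumors and 23.1% and 20.2% in resistant tumors. The chemokine receptor Ccr9 and the coreceptor Cd4 lay below the array median on 2 of 3 arrays in each tumor group, and the interleukin 7 receptor Il7r on 1 of 3. With those arrays set at their median, Ccr9 was at least 144-fold lower in tumors (limma adjusted p = 1.31e-05) and at least 77.4-fold lower in resistant tumors (adjusted p = 2.18e-05). Cd4 was at least 51.8-fold and 50.3-fold lower, and Il7r at least 10.6-fold and 7.92-fold. The recombinase Rag2, bright on all arrays, fell by 3.19 ± 0.29 (SE) in tumors, and Socs3, a cytokine signal inhibitor, rose by 3.02 ± 0.18 in resistant tumors. Mean signals in normal thymus, tumors and resistant tumors were 638, 71.9 and 118 for Rag2 and 167, 1034 and 1359 for Socs3. Ptcra codes for a chain of the early receptor and is activated by E proteins, and it was higher by 3.01 ± 0.12 in tumors and 2.76 ± 0.12 in resistant tumors, and Notch1 by 1.61 ± 0.09 and 1.46 ± 0.09. Ptcra, Notch1, Rag1 (-0.54 and -0.57) and, above, Cd3e, Cd3d, Egr3, Nab1 and Smad3 were chosen for naming after their values were seen. Cd3e, Cd3d and Cd4 stand in the thymocyte list too.

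Of 7 B lineage targets of E proteins tested, 5 fell in tumors and 4 in resistant tumors, and none rose. Cd79a, Cd79b and Pou2af1 passed the filter through normal thymus alone, so they could only be read as lower. Cd79b, a B cell receptor chain, was at least 6.28-fold lower in tumors (limma adjusted p = 5.73e-05) and at least 5.29-fold lower in resistant tumors (adjusted p = 0.000130). Of 6 B cell markers tested 4 fell in tumors and 2 in resistant tumors, and the summed signal over 9 went from 336 to 376 in normal thymus to 99.9 to 212 in tumors and 128 to 165 in resistant tumors. The lists overlap in Cd79a, Cd79b, Pax5 and Blnk, and the part of B cells was not tested.

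**Figure D4:**
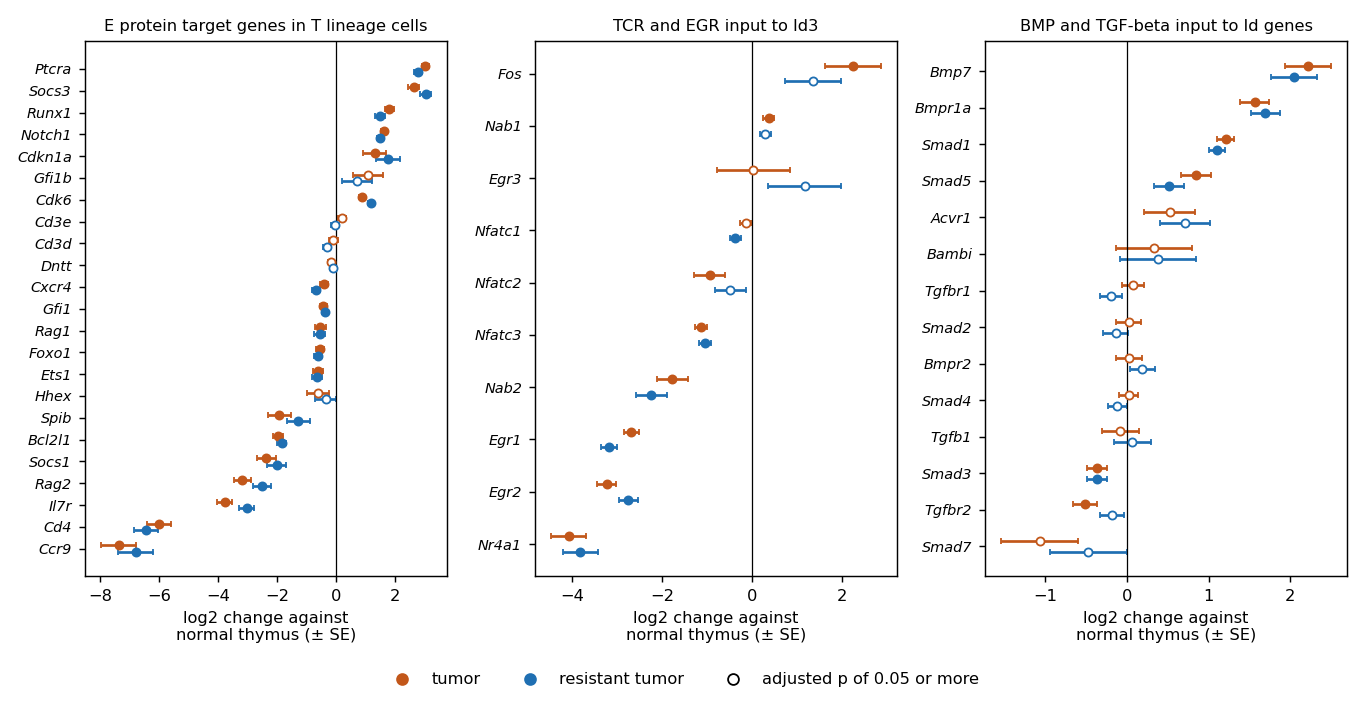
Log2 change against normal thymus with its SE for the tested T lineage targets of E proteins, the receptor and EGR route to Id3, and the BMP and TGF-beta route to Id genes, in tumors (orange) and resistant tumors (blue). Filled points were called. Fitted values are drawn also where signals lay below the array median on some arrays, as for Ccr9, Cd4, Il7r, Nr4a1 and Egr2. In tumors Ptcra lies at 3.01, Rag2 at -3.19 and Egr1 at -2.68.

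Partners of E proteins were mostly dim. Of 20 bHLH partners and LMO cofactors 6 were bright enough to test, and 1 rose and 2 fell in tumors, and 1 rose and 3 fell in resistant tumors. Lmo1, a nuclear adaptor that joins E protein complexes and a known T cell oncogene, lay below the array median on 2 of 3 normal arrays. With those at the median, it was at least 13.8-fold higher in tumors (limma adjusted p = 2.51e-05) and at least 16.7-fold higher in resistant tumors (adjusted p = 1.79e-05). Msc, a bHLH repressor that pairs with E proteins, was at least 3.48-fold lower in tumors and at least 2.93-fold lower in resistant tumors. Tal1, a classical bHLH partner in T cell leukemia, lay below the array median on all 9 arrays.

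Among 11 coactivators and corepressors 3 rose and 3 fell in tumors and 3 rose and 2 fell in resistant tumors. Over all genes 23.3% rose and 19.1% fell in tumors, and 23.1% and 20.2% in resistant tumors. The acetyltransferase Kat2a rose by 1.44 ± 0.13 (SE; limma adjusted p = 3.30e-05) and 1.42 ± 0.13, while Ep300, which E proteins recruit, fell by 0.99 ± 0.13 and 0.82 ± 0.13. The median of the list in tumors was -0.17, and 0.02 with arrays scaled to equal medians, where the median of all genes moved from 0.05 to 0.24. Of 5 genes of E protein turnover Cul1, a ubiquitin ligase scaffold, rose by 0.50 ± 0.10 in both groups and Skp2, its substrate adaptor, by 0.75 ± 0.23 in resistant tumors. Asb2, which targets E proteins for degradation, was at least 2.0-fold lower in tumors and at least 1.69-fold lower in resistant tumors. With equal medians 1 of the 11 coactivators and corepressors rose and 0 fell in each tumor group. Of the 5 turnover genes 0 rose and 1 fell in each. The calls of Ep300, Cul1 and Skp2 were thus lost there, in fits that called 19.6% and 17.5% of all genes. Of 76 entries in these partner, cofactor, turnover, input and target lists, with Foxo1 in both target lists, 0 were called between the tumor groups by limma. With the replicate number as a block 1 was, in a fit that called 0.788% of all genes.

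The genes whose profile over the 9 arrays lay nearest to each member were found by the root mean square difference of centred log2 signals. For Id3 they were Sp100 at 0.21, Epsti1 at 0.21 and Glipr1 at 0.22, beside an SD of 1.35 for the Id3 profile itself. For Tcf4 they were Arhgap21 at 0.08, Jpt2 at 0.09 and Vmp1 at 0.10, beside 0.66. Those nearest to Id1 were Plod2 at 0.27, Zdhhc2 at 0.29 and Med12l at 0.30, beside 1.21. Id2 lay nearest to Pphln1 at 0.15, Prkar2b at 0.15 and Prkaa1 at 0.17, beside 0.50. The nearest to Tcf12 were Cycs, Taf1d and Ap1ar, at 0.06 each, beside 0.22, and to Tcf3 Thap3, Lrig2 and Kansl3, at 0.08 to 0.09, beside 0.24. Profiles of small range find near neighbours more readily, and the arrays share their scaling.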

How the data were processed

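Total RNA of 9 thymus samples was measured on Affymetrix Mouse430_2 arrays. The authors deposited linear intensity values, which MAS5 produced, per the submitters' processing notes. The sources used here do not give the scaling target or detection calls. The trimmed mean of every array was 100.03. For the report, signals were floored at 1 before log2 was taken. Probe sets with 1 symbol were kept where at least 3 arrays reached their own median (20917), and the brightest stood for its gene (11671 genes). One linear model with 3 group means and 6 residual degrees of freedom was fitted in limma 3.58.1 (R 4.3.3) with an intensity trend, with Benjamini-Hochberg adjustment over all genes, or over all probe sets where a single probe set is given. Data were simulated for the tumor comparison, with 11671 genes, 200 of them changed, and independent noise on each array. There 57% of log2 changes of 1 and 92% of changes of 3 were recovered, and 5.10% of calls were false. The real data hold more called genes (42.4%) and arrays that deviate together, so these rates need not hold for them.

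Members and gene lists were chosen with earlier results of these data known. Named were all members, Id4, the HMG box factors, up to 4 called genes of largest change per list, and the 3 genes nearest to each member in profile. List genes were matched by symbol or synonym. The control values of tumor replicate 1 appeared to be stored in another order and were sorted by name. Their correlation with the other arrays was -0.26 as deposited and 0.75 when sorted. The spike-in set and Actb ratio of that array rest on this inference. Arrays were grouped and numbered by the labels. Same-numbered normal and tumor arrays deviated together (correlations of 0.65, 0.37 and 0.41). The main fit held no pairing, and the replicate number was a block in an alternative fit only. Different-numbered arrays of the set with spike-ins correlated about as much (0.36 for normal 2 with tumor 3, 0.45 for normal 3 with tumor 2), so number and spike-in set cannot be told apart there. For resistant tumors the correlation was below 0 for number 2. The number of arrays limits the precision. Alternatives were other scalings, offsets, filters and variance models, the mean over probe sets, spike-in sets, the replicate block and leaving out each array. Figures were drawn with matplotlib 3.10.9.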

Additional observations from a re-analysis of the deposited data

How the results depend on the processing

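Of 360 member changes (6 genes, 3 comparisons, 20 alternatives), 333 kept direction and side of the threshold. The calls of Tcf4, Id1 and Id3 against normal thymus held under all 20 alternatives in both tumor groups, as did that of Id2 in resistant tumors. The call of Tcf12 in resistant tumors was lost in 2, given above. The cause of each change below was not tested.

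With the replicate number as a block 5 of the 6 genes were called in tumors (3 without), beside 51.1% of all genes tested (42.4% without), Tcf3 and Tcf12 among them, at 0.36 (limma adjusted p = 0.0190) and 0.23 (adjusted p = 0.0319). The block gave 92 genes of all between the tumor groups (42 without) and changed no other call of a member. Also 5 genes were called in tumors when the spike-in set was a block (58.7% of all genes), and 15 of 18 probe sets (9 without). Between the tumor groups 0 to 1 members were called with single arrays left out.

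Counts over all genes moved more. In tumors 4943 became 2286 with equal array medians and 2117 in the arrays without spike-ins. In resistant tumors 5049 became 2038 and 3069, and the share of calls that were higher went from 53.4% to 43.1% with equal medians. Between the tumor groups the 42 became 18 with equal medians, 22 with no filter, 23 with a filter at the 75th percentile, 27 with the mean over probe sets, 143 with the spike-in block, 1 and 553 in the arrays without and with spike-ins, and 8 to 70 with single arrays left out. The share of those calls that were higher, 35.7%, became 22.2% with equal medians. Equal medians turned the all-gene median of 0.05 into 0.24 in tumors, and that of -0.02 into -0.26 between the tumor groups.

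The reversals were all of uncalled changes between the tumor groups. Tcf3 (-0.08) became 0.0146 with the spike-in block and 0.19 in the arrays without spike-ins, and ran from -0.234 to 0.0638 with single arrays left out, above 0 without tumor replicate 2. Tcf4 (-0.01) became 0.00707 with quantile normalization and 0.20 with the mean over probe sets, and ran from -0.0961 to 0.0463 with single arrays left out, above 0 without tumor replicate 1 or resistant replicate 2 or 3. Id1 (0.07) became -0.17 with equal medians, -0.37 in the arrays with spike-ins, and ran from -0.279 to 0.251 with single arrays left out, below 0 without tumor or resistant replicate 1. Where an array is left out, limma assumes that the groups share a spread. Signals near or under the array median give only bounds.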
